A study of Homo sapiens with 5 samples.

Results

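The cells described here are those of the afatinib day 6 library in which the transcripts of ZNF750 and RIPK4 took the largest share of the cell's counts. For each of the 942 cells of that library the counts of both genes were summed and divided by the total count of the cell. The 236 cells in the top 25% of the library are called high cells (25.1% of the library). The whole series held 4101 cells. They were set against the 147 cells of the same library with 0 counts of both genes, called zero cells (15.6% of the library), and the remaining 559 cells served as a check on depth. The levels of the pair thus chose the members and are given as a description, without a test. All comparisons of other genes used cells thinned at random to 5000 counts, with ZNF750 and RIPK4 left out.

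All cells were MDA-MB-468, an established triple-negative breast cancer line with an amplified EGFR gene, into which expressed lineage barcodes had been introduced by lentivirus. In 3 libraries, 1 per time point, the cells had received afatinib at 250 nM until day 3, 6 or 9 (called D3, D6 and D9 here). Afatinib binds EGFR and the related receptor ERBB2 irreversibly and blocks their kinase activity. Another 2 libraries were of untreated cells at day 0 (D0, replicates 1 and 2). The libraries held 478 and 1063 cells at untreated D0 replicates 1 and 2 and 479, 942 and 1139 cells at D3, D6 and D9, and total counts ran from 14517579 to 28148379 per library. Transcripts were captured from thawed, previously frozen cells with a 3′ Chromium kit. Whether replicates 1 and 2 of D0 were grown apart is not stated by the labels. The p-values below rest on the spread between these libraries, which may be technical. With 3 residual degrees of freedom, the test estimated that spread with information shared over genes. Very small p-values thus do not come from the spread of 1 gene alone. Of the cell barcodes, 1 was found in more than 1 library.

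ZNF750 encodes a zinc finger transcription factor that acts downstream of p63 (TP63) in epidermis, where it turns on late differentiation genes and restrains progenitor genes. RIPK4 encodes a serine/threonine kinase needed for keratinocyte differentiation and for the barrier of the skin. Both genes are best known from stratified squamous epithelium, and both are also transcribed in breast cancer lines of basal type. Progress through the cell cycle has its own transcript waves, in which replication genes peak around S phase and genes of the mitotic apparatus peak in G2 and M phase.

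On GRCh38 (GENCODE 44 annotation) ZNF750 lies on chromosome 17, 82829434 to 82840022, on the minus strand and within TBCD, which spans 82752042 to 82945914 on the plus strand. RIPK4 lies on chromosome 21, 41739369 to 41767089, on the minus strand. The 3′ assay reads strand, so that counts of ZNF750 and TBCD can be told apart where the counting used it.

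The pair stood far higher at D6 than in any other library. ZNF750 had 6.75 and 7.67 CPM (a gene's share of all counts in parts per 1e+06) in untreated D0 replicates 1 and 2, 26.6 CPM at D3, 101 CPM at D6 and 32.6 CPM at D9. RIPK4 had 15.0 and 15.0 CPM in untreated D0 replicates 1 and 2, 29.2 CPM at D3, 98.0 CPM at D6 and 20.9 CPM at D9. Both genes thus peaked at D6 and were lower again at D9, where ZNF750 lay above RIPK4 instead of below it as at D0. These levels were the reason for the choice of the library and were not tested.

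Detection followed the same course once each cell was brought to 5000 counts. A ZNF750 count was found in 3.98% of cells (exact 95% binomial interval 2.41 to 6.14) and 3.29% (2.30 to 4.55) of untreated D0 replicates 1 and 2, in 9.60% of D3 cells (7.12 to 12.6), 34.3% of D6 cells (31.3 to 37.4) and 13.4% of D9 cells (11.5 to 15.6). A RIPK4 count was found in 9.00% (6.59 to 11.9) and 6.87% (5.42 to 8.56) of untreated cells, 11.3% of D3 cells (8.58 to 14.4), 36.5% of D6 cells (33.4 to 39.7) and 9.48% of D9 cells (7.84 to 11.3). Intervals for shares and ratios cover counting error only. In cells that were not thinned the shares were 19.9%, 15.8%, 32.6%, 61.8% and 36.0% for ZNF750 over the 5 libraries in the same order, and 38.5%, 29.5%, 42.4%, 65.8% and 29.1% for RIPK4. The neighbouring shares at D3 and D9 had overlapping intervals for both genes. All cells belong to 1 line, so no cell type that should lack the genes can give a background share.

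**Figure D1:**
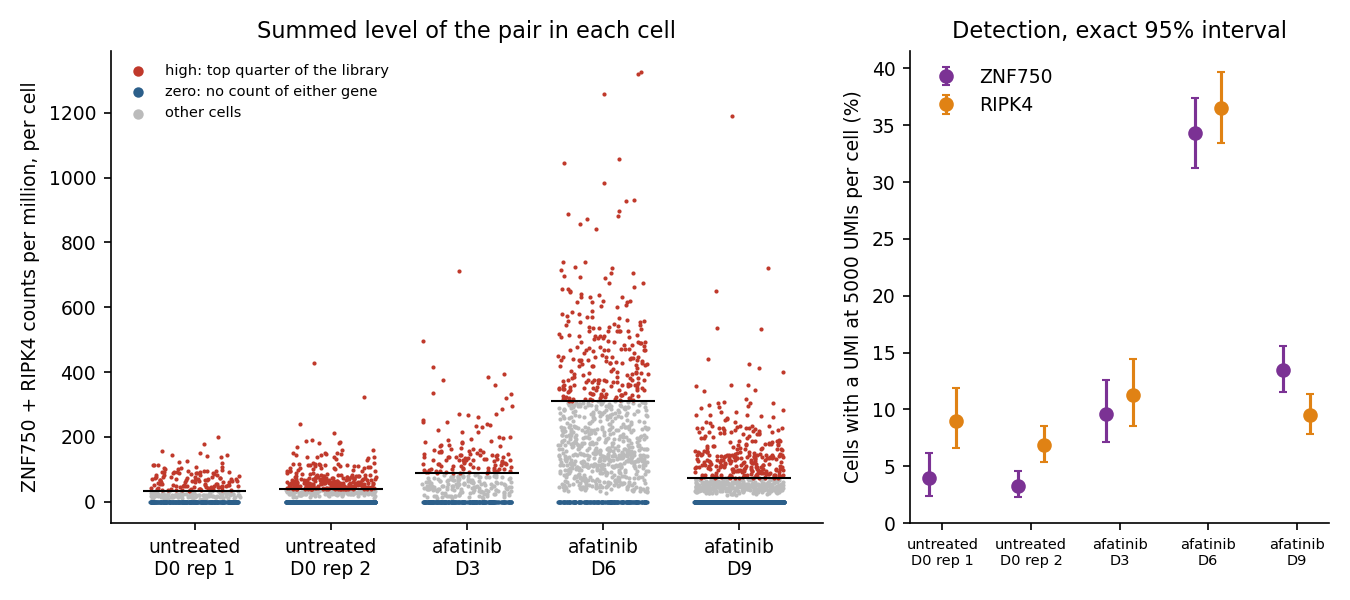
Left, summed ZNF750 and RIPK4 level (CPM) of each cell in the 5 libraries (1 point per cell; red, top 25% of the library; blue, cells with 0 counts of both genes; grey, other cells; black lines, the limit of the top 25%, 311 CPM at D6 and 34.4 to 87.4 CPM elsewhere). Right, percent of cells with a count of each gene after thinning to 5000 counts, with exact 95% intervals, which reach 34.3% for ZNF750 and 36.5% for RIPK4 at D6.

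Within D6 the high cells differed from the others by few molecules. They held 2 to 18 counts of the pair, with a median of 5, and 45 of the 236 cells held fewer than 4. Their share of the pair ran from 311 to 1325 CPM with a median of 441 CPM. Both genes were found in 175 high cells, ZNF750 alone in 30 and RIPK4 alone in 31, and the sums over the high cells were near equal, 700 counts of ZNF750 and 676 of RIPK4. The cell just inside the limit had 3 pair counts of 9638 (311.3 CPM) and the cell just outside had 7 of 22542 (310.5 CPM). After thinning, 10 of the 236 high cells no longer held a count of either gene.

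Cells past the D6 limit were rare in the other libraries. They numbered 0 of 478 in untreated D0 replicate 1 (exact interval 0 to 0.769%), 2 of 1063 in untreated D0 replicate 2 (0.0228 to 0.678%), 10 of 479 at D3 (1.01 to 3.81%) and 15 of 1139 at D9 (0.739 to 2.16%). The class of high cells was therefore also formed within each of these libraries by its own top 25%, which began at 34.4, 38, 87.4 and 72.2 CPM. These cells held few counts of the pair, with a median of 3, 2, 3 and 3 in untreated D0 replicates 1 and 2, D3 and D9, and 27 of 120, 128 of 266, 27 of 120 and 60 of 285 of them held a single count. High against zero cells there was thus often 1 count against 0. Zero cells made up 51.0% and 60.8% of untreated D0 replicates 1 and 2, 42.6% at D3, 15.6% at D6 and 47.3% at D9.

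The 2 genes were compared from cell to cell, where sparse counts draw any correlation toward 0. In thinned D6 cells both were found together in 13.8% of cells, against 12.5% expected from their separate shares, and Pearson's r over cells was 0.081. In untreated D0 replicates 1 and 2 and at D3 r was 0.0029, 0.018 and 0.0056, and at D9 it was 0.098 (both genes in 1.84% of cells, 1.27% expected). These correlations are over cells of 1 library in sparse counts and are no finding in themselves. The variance of the summed pair exceeded its mean by a factor of 1.10 and 1.13 in untreated D0 replicates 1 and 2, 1.26 at D3, 1.56 at D6 and 1.39 at D9, where counting alone gives a factor near 1. For the same relative spread this factor rises with the mean level, which was highest at D6. The factors thus do not rank the libraries by spread between cells.

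Depth moved with the classes, and its part in the results was tested only through the alternatives given further on. At D6 the median cell held 10574.5 counts in high cells, 9595 in zero cells and 18157 in the remaining cells. The median share of mitochondrially encoded counts was 22.7% in high cells and 24.6% in zero cells, against 14.2% in the remaining cells, and MALAT1, a nuclear RNA, took 3.49% of thinned counts in high cells and 3.26% in zero cells. High and zero cells of D6 thus lay closer to each other in depth and RNA make-up than to the rest of their library. In the other libraries the median total was also higher in high cells, 44354 against 43397.5 and 24344 against 23014 in zero cells of untreated D0 replicates 1 and 2, 21114 against 17158.5 at D3 and 21297 against 18253 at D9.

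All 5 epithelial markers checked (EPCAM, CDH1, KRT8, KRT18 and KRT19) were detected, with a summed level of 3210 CPM in high cells and 3220 CPM in zero cells of D6. Of 14 markers of fibroblasts, immune cells and endothelium only COL1A1 and KDR were measured. COL1A1 had 25 counts in 21 high cells and 2 counts in 2 zero cells, and KDR had 13 counts in 10 high cells and 7 counts in 5 zero cells. No other defining marker of these cell types was measured in the matrix, and the part of such cells in the results was not tested.

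The question put to the data was which other genes differed between high and zero cells. At D6 this rests on 1 library, so there is no replicate check and no test. A gene is counted as past the fold there when its level differed by a ratio of at least 1.5 with a mean of at least 50 CPM over both classes. The same contrast was then tested in the other 4 libraries, which the choice of the D6 cells did not use, with the quasi-likelihood test of edgeR on counts summed per library and class, with the library as a block.

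The genes that separated high from zero cells most steadily were those of mitosis. In the 4 other libraries 56 genes rose and 40 fell in high cells at an adjusted p under 0.05, which is 0.594% and 0.424% of 9429 genes tested. Without D9 21 rose and 7 fell, without D3 50 and 22, without untreated D0 replicate 1 40 and 25, and without untreated D0 replicate 2 48 and 77. Of the 53 tested genes of a G2 and M phase list, 25 rose and 0 fell, and 51 were higher, with a median log2 fold change of 0.36 against -0.03 over all genes tested. The median of the list members with at least 50 CPM at D6 was 0.32 and 0.29 in untreated D0 replicates 1 and 2, 0.40 at D3, 0.24 at D6 and 0.48 at D9. At D6 30 of 33 such members were higher in high cells, against 1747 of all 3286 genes. Of the 33, 3 were past the fold upward, against 99 of all 3286 genes. They were CKS2, TPX2 and GTSE1 (the last named after its value was seen).

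Cyclin B1 (CCNB1), the cyclin that drives entry into mitosis, showed the pattern most plainly. It stood at 257, 220, 142, 138 and 208 CPM in high cells of untreated D0 replicates 1 and 2, D3, D6 and D9, against 142, 142, 98.0, 84.4 and 97.2 CPM in zero cells. The level was higher in high cells of every library. Over the 4 libraries without D6, CCNB1 rose by 0.75 ± 0.0808 on the log2 scale (SE, 4 libraries; edgeR adjusted p = 1.66e-16), and at D6 the ratio was 1.64 (exact 95% interval 1.22 to 2.23, from 163 and 62 counts).

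PLK1, a kinase of mitotic entry and spindle assembly, stood at 95, 102, 61.7, 70.4 and 102 CPM in high cells of the same libraries, against 77.0, 61.3, 40.2, 42.2 and 54.5 CPM in zero cells. AURKA, a centrosomal kinase that activates PLK1, stood at 112, 116, 53.3, 57.7 and 76.5 CPM in high cells, against 69.7, 74.3, 30.4, 38.1 and 45.6 CPM in zero cells. Neither gene had a library in which the order was turned. PLK1 rose by 0.63 ± 0.113 and AURKA by 0.63 ± 0.114 in the 4 libraries (edgeR adjusted p = 1.29e-05 and 1.49e-05), and NEK2, a kinase of centrosome separation, rose by 0.83 ± 0.134 (edgeR adjusted p = 6.98e-07). At D6 the ratios were 1.67 (1.09 to 2.61) for PLK1, 1.51 (0.962 to 2.44) for AURKA and 1.32 (0.819 to 2.16) for NEK2.

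Genes of the centromere and the spindle formed the next group. CENPF, a large kinetochore protein and the most abundant of them, stood at 767, 735, 757, 721 and 612 CPM in high cells, against 534, 478, 550, 562 and 388 CPM in zero cells of the same libraries. CENPA, the histone variant that marks centromeres, rose by 0.62 ± 0.108, CENPE, a kinetochore motor, by 0.62 ± 0.103, CENPF by 0.52 ± 0.0524 and TPX2, a spindle assembly factor, by 0.55 ± 0.0864 (edgeR adjusted p from 5.22e-06 for CENPA to 5.6e-19 for CENPF). The D6 ratio was 1.28 (1.14 to 1.45) for CENPF, 1.52 (1.12 to 2.07) for TPX2, 1.39 (0.866 to 2.27) for CENPA and 1.30 (0.935 to 1.84) for CENPE. BUB1, a kinase of the spindle checkpoint, rose by 0.64, GAS2L3, which bundles the cytoskeleton in cytokinesis, by 0.76, and NCAPD2, a condensin subunit, by 0.52.

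PTTG1, the securin that keeps separase inactive before anaphase, stood at 413, 472, 308, 264 and 498 CPM in high cells, against 307, 365, 160, 169 and 274 CPM in zero cells. CKS2, a subunit of cyclin-dependent kinases, stood at 428, 413, 127, 174 and 345 CPM in high cells, against 270, 284, 92.2, 110 and 194 CPM in zero cells. KIF14, a kinesin of cytokinesis, stood at 58.3, 46.6, 65.0, 73.8 and 75.8 CPM in high cells, against 36.9, 39.6, 44.1, 31.3 and 39.3 CPM in zero cells. The 3 genes rose by 0.56 ± 0.0607, 0.59 ± 0.0668 and 0.56 ± 0.136 (edgeR adjusted p = 2.31e-16, 2.94e-15 and 0.00876). Among genes that averaged 50 CPM or more, KIF14 had the second largest ratio at D6, 2.36 (1.47 to 3.91), and the D6 ratios of PTTG1 and CKS2 were 1.57 (1.27 to 1.95) and 1.58 (1.21 to 2.07). The sign of CKS2 in D6 turned with classes chosen on thinned counts (-0.0602) and in cells scored G1 (-0.23).

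**Figure D2:**
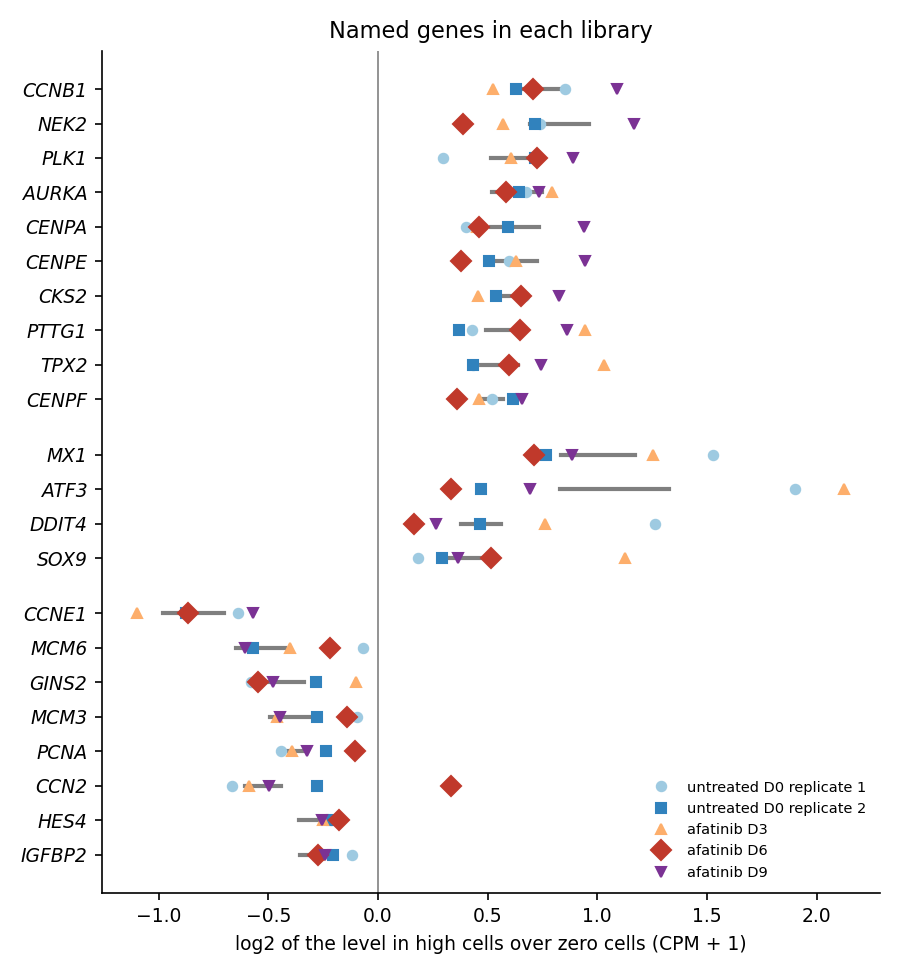
Log2 of the level in high cells over zero cells (CPM + 1) for named genes in each of the 5 libraries (symbols), with the log2 fold change ± SE of the 4 libraries without D6 as grey bars. The mitotic genes lie to the right of 0 in every library, and CCNE1, MCM6, GINS2, MCM3 and PCNA to the left; CCN2 lies to the left in 4 libraries and at 0.33 at D6.

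Genes of the G1/S transition and of replication went the other way. Of 43 S phase genes tested, 5 fell and 0 rose in the 4 libraries, and 41 were lower, with a median log2 fold change of -0.26. Over all 9429 genes 40 fell and 5236 were lower. The median of the members with at least 50 CPM at D6 was -0.11 and -0.22 in untreated D0 replicates 1 and 2, -0.09 at D3, -0.15 at D6 and -0.20 at D9. At D6 6 of 21 such members were higher, against 1747 of all 3286 genes. None was past the fold, against 99 upward and 33 downward of all 3286. CLSPN, a mediator of the replication checkpoint that fell by 0.32 in the 4 libraries, stood at 274 CPM in high cells and 245 CPM in zero cells of D6.

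Cyclin E1 (CCNE1) carries cells from G1 into S phase. Of called genes with 1 sign in all 4 libraries and a mean of at least 50 CPM, it fell the most. Its mean there was 51.0 CPM, close to that limit. It stood at 43.3, 39.9, 28.3, 27.1 and 37.2 CPM in high cells, against 68.0, 74.0, 61.8, 50.3 and 55.7 CPM in zero cells. All 5 libraries had the lower level in high cells. CCNE1 fell by 0.84 ± 0.139 on the log2 scale in the 4 libraries (edgeR adjusted p = 1.26e-06), and its D6 ratio was 0.539 (0.325 to 0.889, from 32 and 37 counts).

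MCM6 and MCM3, subunits of the replicative helicase, fell by 0.54 ± 0.113 and 0.40 ± 0.0916, GINS2, a part of the same helicase complex, fell by 0.44 ± 0.0994, and PCNA, the sliding clamp of DNA polymerase, fell by 0.39 ± 0.064 (edgeR adjusted p from 1.26e-06 for PCNA to 0.00291 for MCM3). GINS2 stood at 66.7, 97.0, 75, 69.5 and 101 CPM in high cells, against 100, 118, 80.4, 102 and 141 CPM in zero cells. FAM111B, a protease gene of replicating cells, fell by 0.43 and CDK4, the kinase partner of D cyclins, by 0.39. At D6 the ratio was 0.681 (0.492 to 0.945) for GINS2, and the intervals of MCM6, MCM3 and PCNA included 1.

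Promoters of genes that the results turn on are shown next, since mitotic and replication genes are known to be controlled through short promoter elements. The windows run from 250 bases before to 50 bases after the start site and are RefSeq sequences on GRCh38.p14, given 5′ to 3′ on the strand of the gene. For genes that rose, capitals mark the core of the cell cycle homology region, TTTGAA, through which the DREAM and MuvB complexes act, and the CCAAT box, on either strand. For genes that fell, capitals mark 4 core strings of E2F sites, TTTCCCGC, TTTCGCGC, TTTGCCGC and TTTGGCGC, on either strand. No match overlapped one of another motif in the windows shown.
CCNB1, chr5:69166900-69167199, plus strand: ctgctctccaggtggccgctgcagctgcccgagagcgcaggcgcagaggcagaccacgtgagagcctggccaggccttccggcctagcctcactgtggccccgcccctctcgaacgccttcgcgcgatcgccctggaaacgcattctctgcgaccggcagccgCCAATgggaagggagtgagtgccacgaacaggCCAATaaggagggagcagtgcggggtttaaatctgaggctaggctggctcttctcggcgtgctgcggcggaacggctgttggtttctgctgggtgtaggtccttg
PLK1, chr16:23678639-23678938, plus strand: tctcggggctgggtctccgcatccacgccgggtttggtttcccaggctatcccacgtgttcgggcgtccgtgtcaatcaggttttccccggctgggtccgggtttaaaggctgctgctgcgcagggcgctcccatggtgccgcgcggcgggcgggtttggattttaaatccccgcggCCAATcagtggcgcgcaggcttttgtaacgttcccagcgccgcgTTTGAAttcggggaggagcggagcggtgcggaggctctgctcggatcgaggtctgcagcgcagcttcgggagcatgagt
CENPA, chr2:26785806-26786105, plus strand: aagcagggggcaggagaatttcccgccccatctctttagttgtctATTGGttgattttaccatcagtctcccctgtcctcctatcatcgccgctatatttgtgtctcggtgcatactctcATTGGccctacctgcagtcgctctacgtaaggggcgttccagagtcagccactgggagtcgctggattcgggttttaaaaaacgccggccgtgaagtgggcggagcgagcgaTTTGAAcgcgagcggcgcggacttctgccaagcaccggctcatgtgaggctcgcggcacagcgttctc
CKS2, chr9:89310945-89311244, plus strand: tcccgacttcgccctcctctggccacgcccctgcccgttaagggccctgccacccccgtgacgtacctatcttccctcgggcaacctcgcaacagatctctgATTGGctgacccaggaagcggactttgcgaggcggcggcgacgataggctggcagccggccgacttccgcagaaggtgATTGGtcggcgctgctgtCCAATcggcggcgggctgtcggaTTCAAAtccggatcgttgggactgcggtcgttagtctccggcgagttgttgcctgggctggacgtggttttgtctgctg
CENPF, chr1:214602945-214603244, plus strand: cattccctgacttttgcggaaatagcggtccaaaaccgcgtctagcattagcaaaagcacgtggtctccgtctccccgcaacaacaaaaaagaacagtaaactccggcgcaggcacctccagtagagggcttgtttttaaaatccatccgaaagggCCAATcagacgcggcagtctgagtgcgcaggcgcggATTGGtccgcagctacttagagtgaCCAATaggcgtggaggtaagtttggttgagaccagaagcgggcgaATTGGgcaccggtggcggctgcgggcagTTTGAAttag
CENPE, chr4:103198294-103198593, minus strand: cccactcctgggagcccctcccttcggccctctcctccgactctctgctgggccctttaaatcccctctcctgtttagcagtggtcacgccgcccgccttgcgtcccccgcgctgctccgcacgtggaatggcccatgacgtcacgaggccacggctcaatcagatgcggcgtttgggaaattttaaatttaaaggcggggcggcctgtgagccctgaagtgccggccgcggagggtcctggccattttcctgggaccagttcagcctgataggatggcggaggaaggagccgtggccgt
NEK2, chr1:211675572-211675871, minus strand: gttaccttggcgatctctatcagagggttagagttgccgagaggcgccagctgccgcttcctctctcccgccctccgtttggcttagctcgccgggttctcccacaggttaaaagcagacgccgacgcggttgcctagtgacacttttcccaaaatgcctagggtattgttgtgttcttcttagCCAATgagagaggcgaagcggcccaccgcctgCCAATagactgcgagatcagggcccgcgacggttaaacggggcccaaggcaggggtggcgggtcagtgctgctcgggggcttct
CCNE1, chr19:29811741-29812040, plus strand: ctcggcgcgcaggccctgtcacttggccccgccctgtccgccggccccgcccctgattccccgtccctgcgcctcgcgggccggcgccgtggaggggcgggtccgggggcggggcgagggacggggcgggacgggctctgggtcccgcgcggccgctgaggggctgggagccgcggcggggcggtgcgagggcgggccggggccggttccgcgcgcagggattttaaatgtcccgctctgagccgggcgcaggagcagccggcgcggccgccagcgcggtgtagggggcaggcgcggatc
MCM6, chr2:135876394-135876693, minus strand: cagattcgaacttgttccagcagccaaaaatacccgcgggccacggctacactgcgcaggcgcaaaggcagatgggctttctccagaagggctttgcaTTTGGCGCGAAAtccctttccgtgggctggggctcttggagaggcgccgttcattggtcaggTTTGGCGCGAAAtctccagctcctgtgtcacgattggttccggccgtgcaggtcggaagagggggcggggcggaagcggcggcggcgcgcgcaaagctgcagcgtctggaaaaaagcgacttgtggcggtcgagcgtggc
GINS2, chr16:85688905-85689204, minus strand: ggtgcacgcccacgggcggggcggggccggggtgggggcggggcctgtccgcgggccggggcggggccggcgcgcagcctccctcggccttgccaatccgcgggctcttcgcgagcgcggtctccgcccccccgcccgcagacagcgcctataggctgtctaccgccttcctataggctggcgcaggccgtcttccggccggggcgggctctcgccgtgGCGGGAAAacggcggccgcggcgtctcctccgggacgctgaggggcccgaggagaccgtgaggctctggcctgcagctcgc
MCM3, chr6:52284693-52284992, minus strand: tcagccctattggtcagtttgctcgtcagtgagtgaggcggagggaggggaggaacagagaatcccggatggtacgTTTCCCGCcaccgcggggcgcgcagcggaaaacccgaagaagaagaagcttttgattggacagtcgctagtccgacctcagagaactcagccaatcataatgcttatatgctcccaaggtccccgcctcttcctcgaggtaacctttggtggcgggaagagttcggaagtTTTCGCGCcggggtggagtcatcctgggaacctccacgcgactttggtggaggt

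TTTGAA began 29 bases before the start site in PLK1 and in CKS2 and 18 bases before it in CENPA. The CCNB1 window held 2 CCAAT boxes and no TTTGAA. The windows of CENPE and CCNE1 held none of the strings searched, and that of NEK2 held 2 CCAAT boxes and no TTTGAA. Over all 35116 windows of this length 15.2% held TTTGAA, as did 13.8% of 9810 measured genes with a window. Of 56 genes that rose, 46 had a window, and 24 of these held TTTGAA, as did 14 of the 19 with a window among the 25 G2 and M phase genes that rose. Of 40 genes that fell 31 had a window, and 2 held TTTGAA. An E2F string was found in 3.31% of all windows and 6.84% of the measured genes, in 2 of the 46 genes that rose, in 9 of the 31 that fell and in 4 of the 5 S phase genes that fell. CCAAT boxes were common throughout, in 34.6% of all windows, 44% of the measured genes, 35 of the 46 and 21 of the 31. A match is a description of the letters in the window and not of binding, and these shares were not tested.

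Scores of cell cycle phase went with the gene lists, which they are built from. High cells were scored G2 or M in 60.8% and 55.3% of untreated D0 replicates 1 and 2, 43.3% at D3, 41.9% at D6 and 49.8% at D9, against 44.3%, 41.0%, 25.0%, 33.3% and 28.0% of zero cells. They were scored S in 20%, 25.6%, 27.5%, 31.8% and 22.8%, against 35.7%, 37.9%, 46.1%, 38.1% and 37.3% of zero cells. The gap in G2 or M was smallest at D6, 8.62 percentage points against 14.2 to 21.8 points elsewhere, and the exact intervals of the classes overlapped only at D6 (35.6 to 48.5% in high cells and 25.8 to 41.6% in zero cells). Cells scored G1 differed less, with 26.3% of high cells and 28.6% of zero cells at D6.

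**Figure D3:**
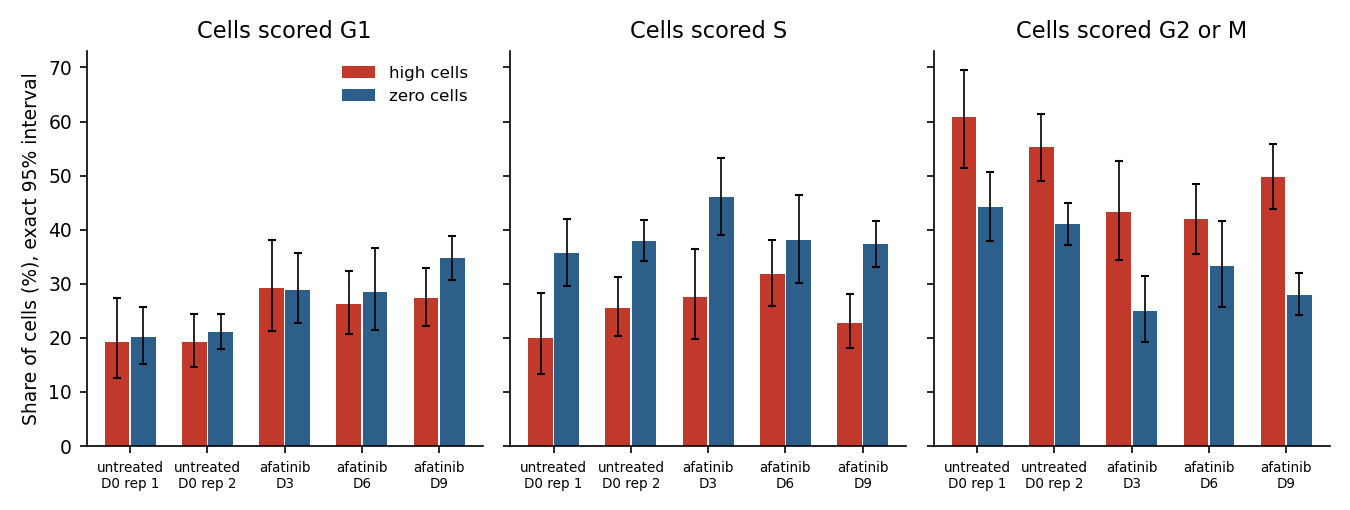
Percent of cells scored G1, S and G2 or M among high cells (red) and zero cells (blue) of each library, with exact 95% binomial intervals. High cells had the larger G2 or M share in all 5 libraries, 41.9% against 33.3% at D6, and the smaller S share, 31.8% against 38.1% at D6.

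The level of the pair itself was read per phase in all cells of a library. At D6 it was 187 CPM in cells scored G1, 196 CPM in S and 209 CPM in G2 or M. At D9 it was 50.8, 37.7 and 68.8 CPM, at D3 65.0, 40.2 and 63.2 CPM, and in untreated D0 replicates 1 and 2 it was 22.1, 15.3 and 25.5 CPM and 18.5, 17.3 and 27.2 CPM. The level was thus within a narrow range over the phases at D6 and lowest in S phase in the other 4 libraries.

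At D6 the summed G2 and M phase list also followed the level of the pair over the whole library. It took 0.529% of thinned counts in zero cells, 0.580% and 0.628% in the remaining cells below and above their median pair level, and 0.641% in high cells. The S phase list took 0.359%, 0.362%, 0.351% and 0.338% in the same order. In untreated D0 replicate 1 and at D9 the remaining cells above the median had less of the G2 and M phase list than those below it (0.605% against 0.785%, and 0.544% against 0.867%). In untreated D0 replicate 2 and at D3 the high cells had less of it than the remaining cells above the median (0.829% against 0.860%, and 0.627% against 0.706%). Of the 5 libraries, only D6 thus had the order throughout. Depth also differed between these groups. The median total of remaining cells below and above the median pair level was 17380 and 18670 at D6. It was 66960 and 43230 in untreated D0 replicate 1 and 41170 and 30390 in replicate 2. At D3 it was 38830 and 27450, and at D9 26710 and 18870. The part of depth in the order was not tested.

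The cell cycle contrast was smaller in most alternatives that held depth or phase equal. With zero cells matched to high cells on total counts, 11 of the 25 G2 and M phase genes were still called and the median of the list was 0.30 in the 4 libraries and 0.29 at D6. With classes chosen on the thinned counts, so that every cell had the same depth when it was classed, 7 of the 25 were still called and the median was 0.22 in the 4 libraries but 0.02 at D6. The zero cells of D6 then numbered 405 instead of 147, since cells whose counts of the pair were lost in thinning joined them. With zero cells matched on phase and total counts, an alternative chosen after seeing the data, 1 of the 25 (CENPF) was still called and the median was 0.08 in the 4 libraries and 0.18 at D6. In cells scored G1 edgeR called 0 genes of 4377, with 233 at an unadjusted p under 0.05, and only 17 G2 and M phase genes were tested. Phases were scored from these same lists, so both settings evened out the lists in advance. They cannot show how far the contrast goes beyond phase.

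Classes set on ZNF750 alone gave more calls than classes set on RIPK4 alone. With classes set on ZNF750 alone, 26 G2 and M phase genes rose, against 55 of all 9925 genes. The list then had a median of 0.41 in the 4 libraries and 0.37 at D6. With RIPK4 alone 3 rose, against 13 of all 9663 genes, and the medians were 0.11 and 0.08. Of the 56 genes that rose with the pair, 35 rose with ZNF750 alone and 11 with RIPK4 alone, and the difference between the genes was not tested.

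**Figure D4:**
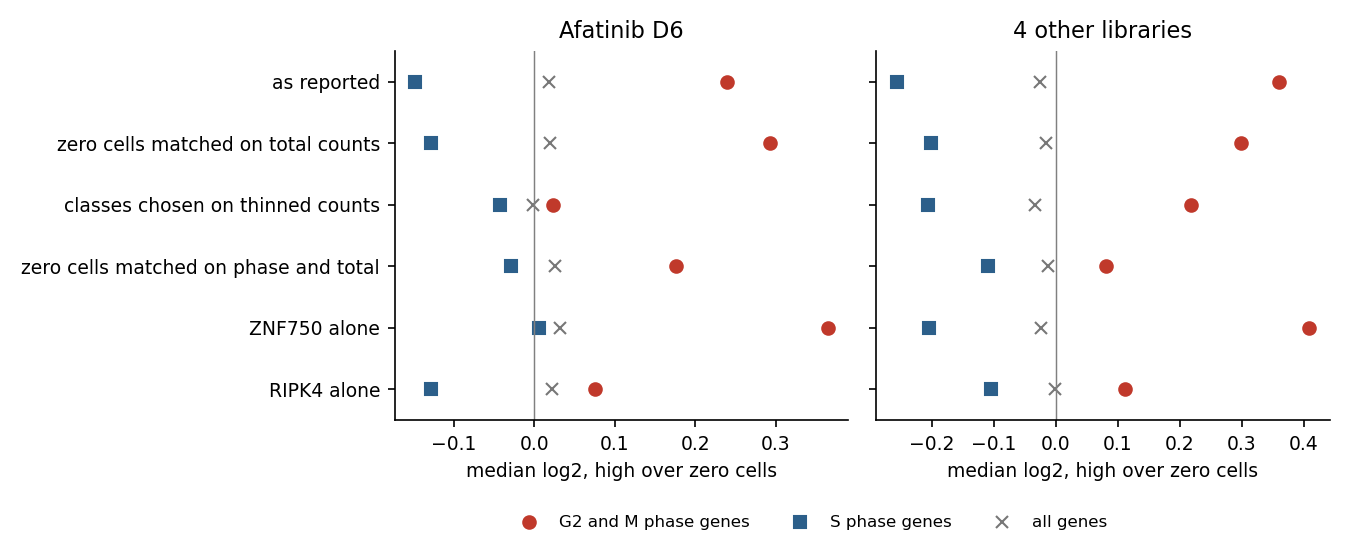
Median log2 of high over zero cells for G2 and M phase genes (circles), S phase genes (squares) and all genes (crosses) under 6 ways of forming the classes, at D6 (left; members with at least 50 CPM, 33, 21 and 3286 genes) and in the 4 other libraries (right; 53, 43 and 9429 genes as reported). The G2 and M phase median at D6 is 0.24 as reported and 0.02 with classes chosen on thinned counts.

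Few genes of differentiation, the field in which ZNF750 and RIPK4 are known, were called. Of 19 tested epidermal differentiation regulators, 1 rose and 0 fell, against 56 and 40 of all 9429 genes. In high cells 17 of the 19 were higher, against 4193 of the 9429 genes, and the median was 0.15. The riser was SOX9, a transcription factor of epithelial progenitors. It stood at 118, 115, 192, 204 and 207 CPM in high cells, against 104, 93.8, 87.2, 143 and 160 CPM in zero cells, and rose by 0.38 ± 0.087 (edgeR adjusted p = 0.00285; D6 ratio 1.43, 1.13 to 1.82). SOX9 was also called with zero cells matched on phase and total counts, at 0.36 (edgeR adjusted p = 0.038).

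Of 23 tested squamous keratin and cornified envelope genes, 32 desmosome and junction genes and 14 luminal breast genes, 0 rose and 0 fell in the edgeR test, with medians of -0.04, 0.02 and -0.06. Over all 9429 genes 56 rose and 40 fell, so 0 calls in lists of this length do not set them apart. TP63, the epidermal master regulator above ZNF750, had 1 count in high cells and 0 in zero cells of D6. KLF4, a differentiation factor known to be induced by ZNF750 in epidermis, had 3 and 5 counts, and GRHL3 had 17 and 6, and these 3 genes were too low for the test.

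KRT16, a keratin of stressed and hyperproliferative epidermis, was among the largest differences at D6 but not elsewhere. It stood at 96.7 CPM in high cells and 47.6 CPM in zero cells of D6, a ratio of 2.03 (1.38 to 3.06), with a count in 28.0% of high cells (22.3 to 34.2) and 16.3% of zero cells (10.7 to 23.3). In the 4 other libraries it stood at 170, 195, 113 and 130 CPM in high cells, against 155, 181, 135 and 107 CPM in zero cells, a log2 fold change of 0.05 with an SE of 0.0837 (adjusted p = 0.895 by edgeR). The difference between D6 and the other libraries was 0.93 ± 0.288 on the log2 scale, with the spread taken from the other 4 libraries, and was not called (edgeR adjusted p = 0.451).

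Of 16 ERK output genes, 5 ERBB receptors and ligands, 7 NF-kB targets, 3 Wnt targets, 8 mesenchymal and basement membrane genes, 19 immediate early and heat shock genes and 8 nuclear and long noncoding transcripts tested, edgeR called 0, and of 10 Notch genes only HES4. These lists are also short against the 56 genes that rose and 40 that fell of all 9429.

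Several stress and interferon genes also rose. Of 19 tested stress response genes (integrated stress and unfolded protein responses), 3 rose and 0 fell, with a median of 0.14, against 56 that rose of all 9429 genes. ATF3, a stress-induced transcription factor, stood at 33.3, 18.8, 33.3, 50 and 12.6 CPM in high cells, against 8.20, 13.3, 6.86, 39.5 and 7.42 CPM in zero cells, and rose by 1.08 ± 0.248 (edgeR adjusted p = 0.00311). DDIT4, an inhibitor of mTORC1, rose by 0.47 ± 0.0908 and DDIT3, the factor CHOP, by 0.58 ± 0.153 (edgeR adjusted p = 0.000117 and 0.021). At D6 their ratios were 1.27 (0.800 to 2.05), 1.12 (0.848 to 1.49) and 0.879 (0.616 to 1.26), so DDIT3 had the opposite order there.

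MX1, an antiviral GTPase, stood at 35.0, 32.3, 95, 22.9 and 37.9 CPM in high cells, against 11.5, 18.6, 39.2, 13.6 and 20 CPM in zero cells. It was higher in high cells of all 5 libraries and rose by 1.00 ± 0.170 in the 4 libraries (edgeR adjusted p = 2.38e-06; D6 ratio 1.68, 0.789 to 3.90). IFI6 and IRF1 rose by 0.71 and 0.60, and the other 17 of 20 tested interferon-stimulated genes were not called, against 56 that rose of all 9429. With classes chosen on thinned counts, 2 of the 20 rose and 3 fell, against 33 and 136 of all 9984 genes. MX1 and ATF3 were still called with zero cells matched on phase and total counts, at 1.13 ± 0.207 and 1.30 ± 0.301 (edgeR adjusted p = 0.000142 and 0.00971). MX1 lies on the same chromosome as RIPK4, at 41420020 to 41470071 on chromosome 21, and its end lies 269298 bases from the nearest base of RIPK4.

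Other genes that fell were not of replication. CCN2, a matricellular protein and YAP target, stood at 173, 186, 145 and 65.3 CPM in high cells of untreated D0 replicates 1 and 2, D3 and D9, against 275, 226, 219 and 92.4 CPM in zero cells, and fell by 0.53 ± 0.0824 (edgeR adjusted p = 1.92e-07). At D6 it was instead 136 CPM in high cells and 108 CPM in zero cells, a ratio of 1.26 (0.958 to 1.67). The difference between D6 and the other libraries, 0.82 ± 0.224 with the spread taken from those 4, was not called (edgeR adjusted p = 0.241). ORAI1, a calcium channel, CYB5A, a cytochrome, EID1, an inhibitor of differentiation, and SIVA1, a regulator of apoptosis, fell by 0.46, 0.42, 0.36 and 0.34, and at D6 ORAI1 and CYB5A had ratios of 1.21 and 1.26 and EID1 and SIVA1 of 0.804 and 0.759.

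IGFBP2, a binding protein of insulin-like growth factors, was lower in high cells of every library, at 128, 126, 203, 200 and 256 CPM against 139, 146, 245, 242 and 303 CPM in zero cells. It fell by 0.28 ± 0.0764 in the 4 libraries (edgeR adjusted p = 0.0328), with a D6 ratio of 0.826 (0.677 to 1.01). HES4, a Notch target, fell by 0.29 ± 0.0627 (edgeR adjusted p = 0.000949; D6 ratio 0.883, 0.765 to 1.02). Both were also called with zero cells matched on phase and total counts, at -0.29 and -0.28. In cells scored G1, IGFBP2 in the 4 other libraries had the opposite sign (0.0589). Of the receptors, EGFR stood at 1094 CPM in high cells and 944 CPM in zero cells of D6 (ratio 1.16, 1.05 to 1.27) and had a log2 fold change of -0.08 ± 0.0485 in the 4 libraries. ERBB2 stood at 40.7 and 25.9 CPM and IGF1R at 45.8 and 35.4 CPM in high and zero cells of D6, with log2 fold changes of 0.29 ± 0.192 and -0.24 ± 0.211 in the 4 libraries, and edgeR called neither of them nor EGFR (adjusted p = 0.618, 0.751 and 0.585).

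Most ribosomal protein genes were slightly lower in high cells. In the scaled counts of the 4 libraries 81 of 82 were lower, with a median of -0.11, against 5236 of all 9429 genes. At D6 7 of 80 were higher, with a median of -0.09, against 1747 of all 3286. In unscaled CPM the median of the list ran from -0.11 at D9 to 0.02 in untreated D0 replicate 2. RPS14, which fell by 0.17, was the one called, against 40 that fell of all 9429 genes. With zero cells matched on total counts 41 of the 82 fell, against 116 of all 8583. KLF6 was the 1 of 14 FOXO and PI3K responsive genes that rose, by 0.27, against 56 of all 9429 genes. MT-ND6 was the 1 of 13 mitochondrially encoded genes that fell, by 0.34, though all 13 were lower. With classes set on ZNF750 alone 12 of the 13 fell, against 36 of all 9925 genes. With RIPK4 alone 11 of the 13 fell, against 17 of all 9663. Together the 13 mitochondrially encoded genes took 9.88%, 9.02%, 23.1%, 22.5% and 12.2% of thinned counts in high cells of untreated D0 replicates 1 and 2, D3, D6 and D9, against 11%, 11.1%, 23.0%, 23.4% and 11.2% in zero cells. With classes chosen on thinned counts, MT-ND6 came out at 0.01.

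**Figure D5:**
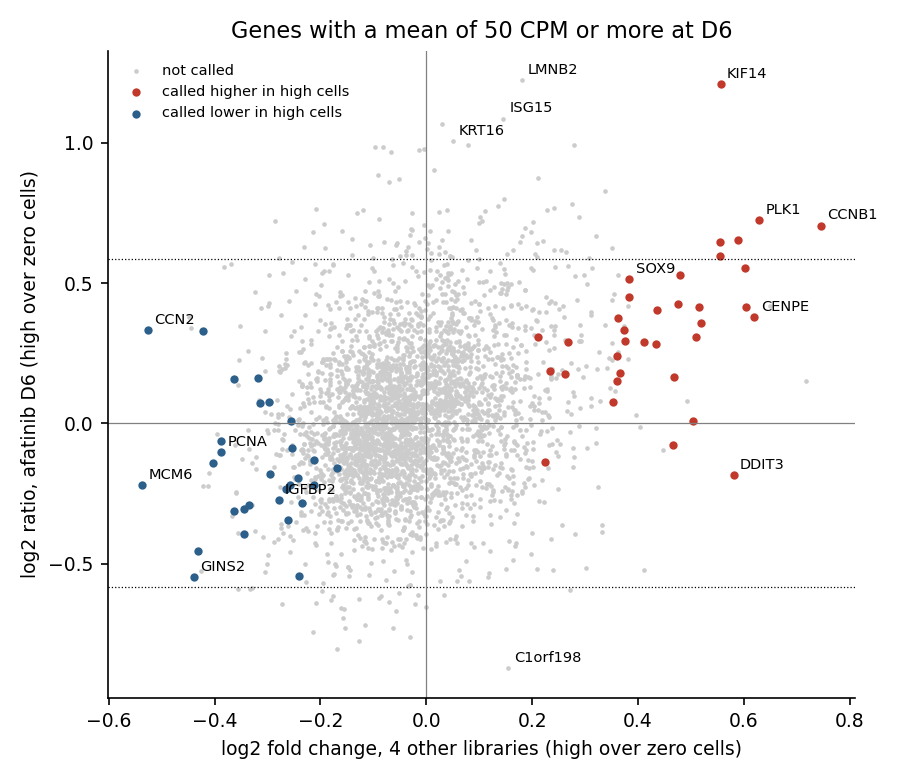
Log2 ratio of high over zero cells at D6 (y axis) against the log2 fold change in the 4 other libraries (x axis) for 3286 genes that averaged 50 CPM or more at D6, with genes called in the 4 libraries in red (higher) and blue (lower) and dotted lines at a ratio of 1.5. The called mitotic genes, among them KIF14, lie in the upper right, while other large D6 differences, such as LMNB2 and KRT16, lie near 0 on the x axis.

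At D6 itself, 99 of 3286 genes were past the fold upward and 33 downward (3.01% and 1%). With the totals computed without mitochondrially encoded genes and those of ribosomal proteins, 169 and 123 genes were. Of the 99, 60 were also higher in high cells of the 4 other libraries, where 36.4% of the 3286 genes were, and 6 were called there (KIF14, CCNB1, PLK1, PTTG1, CKS2 and TPX2). Of the 33, 30 were also lower there, where 63.6% of all were, and 0 were called in the edgeR test. Of the 56 genes called higher in the 4 libraries 52 were higher at D6, and of the 40 called lower 26 were lower.

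LMNB2, which encodes lamin B2 of the nuclear envelope, had the largest ratio at D6 among genes that averaged 50 CPM or more, 2.36 (1.61 to 3.56). It stood at 109 CPM in high cells and 46.3 CPM in zero cells, with a count in 38.6% of high cells (32.3 to 45.1) and 19% of zero cells (13.0 to 26.3). In the 4 libraries it was higher in each but did not pass the test (0.18 ± 0.122; edgeR adjusted p = 0.628). The other large ratios at D6 were those of RAB31, a small GTPase of membrane traffic (2.12), ZNF608, a zinc finger gene (2.02), PVT1, a long noncoding RNA (2.01), FNBP4 (2.01), DCAF7, an adaptor of kinases (2), GADD45A, a stress gene of growth arrest (1.99), CYB5R3, a reductase (1.99), and CLN3, a lysosomal protein (1.97), each from 80 to 161 counts in high cells and 25 to 50 in zero cells. Their log2 fold changes in the 4 libraries ran from -0.10 for DCAF7 to 0.28 for FNBP4, and none was called. LMNB2 and these genes were picked for the size of the D6 ratio, and the interval given for LMNB2 does not allow for that choice.

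The largest ratios downward at D6 were smaller. C1orf198 stood at 38.2 CPM in high cells and 70.7 CPM in zero cells (ratio 0.539, 0.354 to 0.820), and SPCS1, a subunit of the signal peptidase, at 61.1 and 107 CPM (0.568, 0.407 to 0.792). SNX17, an endosomal sorting protein (0.579), TMEM126B, an assembly factor of complex I (0.583), CARD19 (0.593), ZFPM1, a cofactor of GATA factors (0.599), GART, an enzyme of purine synthesis (0.599), VMA21, an assembly factor of the vacuolar proton pump (0.602), PNP, an enzyme of purine salvage (0.613), MTLN, a mitochondrial micropeptide (0.623), FIBP (0.630) and GLO1, which clears methylglyoxal (0.631), followed. In the 4 other libraries these 12 genes had log2 fold changes from -0.21 for CARD19 to 0.15 for C1orf198, and none was called. They too were picked for the size of the D6 ratio, and the intervals given for C1orf198 and SPCS1 do not allow for that choice.

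ISG15, an interferon-induced ubiquitin-like protein, had the third largest of these ratios at D6, 2.15 (1.47 to 3.20), but from few cells. Its 124 counts in high cells lay in 41 cells, and 3 of these held 62 of them, while the 36 counts in zero cells lay in 32 cells. A count was thus found in 17.4% of high cells (12.8 to 22.8) and 21.8% of zero cells (15.4 to 29.3). Without the 3 cells with most counts in each class the levels were 53.2 CPM in high cells and 40.3 CPM in zero cells. In the 4 libraries ISG15 differed by 0.15 ± 0.103 on the log2 scale (edgeR adjusted p = 0.65).

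Tests of the difference between D6 and the other libraries had 1 library on the D6 side, so the spread came from the other 4 and D6 was assumed to vary like them, with no replicate of D6 behind any p. They called 1 of 9263 genes (0.0108%), the interferon-induced gene OASL, whose counts lay in a few cells. Over the mitotic genes named here this difference ran from -0.51 ± 0.352 for NCAPD2 to 0.64 ± 0.370 for KIF14, and none was called, which does not show the contrasts to be alike. The test of treated (D3 and D9) against untreated libraries called 0 of 9429 genes by edgeR, with 432 at an unadjusted p under 0.05. It had 2 libraries on each side.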

How the data were processed

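Single-cell RNA-seq was done on 5 libraries of MDA-MB-468 cells. The authors aligned reads with Cell Ranger 6.1.2 to GRCh38, removed shallow cells, cells with outlying mitochondrial shares and doublets, adjusted counts with ComBat-seq because day 0 cells came from 2 captures and removed low genes. The deposited values are estimated counts, which the authors obtained by this adjustment. All were whole numbers, so rounding changed nothing. Which libraries shared a batch is not given in the sources used here. Cell names, gene IDs and symbols were used as deposited.

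The smallest cell held 5124 counts. Each cell was thinned to 5000 counts, and high and zero cells were formed within each library. Phases were scored with scanpy 1.11.5. Counts summed per library and class were tested with edgeR 4.0.16 (TMM, filterByExpr, library as block, Benjamini-Hochberg) in the 4 libraries without D6, under R 4.3.3. DESeq2 1.42.0 was an alternative. High and zero cells of 1 library share that library, which is where the pairing comes from. At D6, ratios have exact 95% intervals that cover counting error only. The test was checked on simulated data.

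Named genes were the 12 largest differences each way at D6 and the 12 each way called in the 4 libraries with 1 sign in all (means of at least 50 CPM), up to 4 called members of each list, the largest 5 of each interaction, and KLF4, TP63, GRHL3, EGFR, ERBB2, IGFBP2 and IGF1R. Another gene of the rule is not reported here. The members and lists were chosen with earlier results of these data known.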

Additional observations from a re-analysis of the deposited data

Results flagged for a closer look

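OASL, an interferon-induced gene, was the 1 gene whose contrast of high with zero cells differed between D6 and the other 4 libraries by the test of the difference itself, at 2.93 ± 0.593 on the log2 scale (edgeR adjusted p = 0.007). The D6 side of that test is 1 library and the spread comes from the other 4, so the p has no replicate of D6 behind it. It stood at 41.5 CPM in high cells and 6.80 CPM in zero cells of D6. In untreated D0 replicates 1 and 2, D3 and D9 it stood at 5.00, 4.51, 35.0 and 44.9 CPM in high cells, against 6.56, 3.41, 38.2 and 62.0 CPM in zero cells. The 49 counts in high cells of D6 lay in 7 of 236 cells, of which 1 held 32, and the 5 counts in zero cells lay in 2 of 147 cells. Without the 3 cells with most counts in each class, 4 counts were left in high cells and 0 in zero cells.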

How the results depend on the processing

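In the 4 other libraries, where 56 genes rose and 40 fell, DESeq2 called 11 and 2, with 237 at an unadjusted p under 0.05. Without the replicate block, which sets high against zero cells of the same library, edgeR called 0 and 0, with 83 genes at an unadjusted p under 0.05. Without thinning 279 rose and 540 fell, with classes chosen on thinned counts 33 and 136, and with RIPK4 alone 13 and 17. In cells scored G1 edgeR called 0 and 0, with 233 at an unadjusted p under 0.05. The number that fell was 116 with zero cells matched on total counts, 24 in cells under 10% mitochondrial counts and 99 with all 5 libraries. Of settings chosen after seeing the data, matching on phase and total counts gave 15 that rose, treated libraries only gave 26 and 8, and untreated libraries only 13 and 11. Leaving out 1 library gave 21 to 50 that rose and 7 to 77 that fell. At D6, where 99 genes were past the fold upward and 33 downward, the counts were 46 and 12 without thinning, 25 and 21 with classes chosen on thinned counts, 469 and 568 in cells under 10% mitochondrial counts, 340 and 401 in cells scored G1, 31 and 15 with ZNF750 alone, 34 and 21 with RIPK4 alone, 62 and 17 with the top 50% of cells, 169 and 123 without mitochondrially encoded and ribosomal protein genes, 466 and 248 with a mean of at least 20 CPM, and 8 and 0 at a ratio of 2. The number downward was 53 with zero cells matched on total counts. Classes at D6 were small in cells under 10% mitochondrial counts (47 high and 19 zero cells) and in cells scored G1 (66 and 42). Fewer cells give a larger counting error in these ratios. The direction turned with classes chosen on thinned counts for ISG15 in the 4 other libraries (-0.48), MT-ND6 in the 4 other libraries (0.0062) and CKS2 in D6 (-0.0602). It turned in cells scored G1 for MCM6 in the 4 other libraries (0.0091), IGFBP2 in the 4 other libraries (0.0589), PNP in D6 (0.28) and CKS2 in D6 (-0.23). In cells under 10% mitochondrial counts it turned for RAB31 in D6 (-0.0825), CYB5R3 in D6 (-0.22) and GART in D6 (0.77), and with ZNF750 alone for GLO1 in D6 (0.12). The cause was not tested. The other scalings, filters and seeds kept both counts within 1.5 times. Single calls moved more than these counts. With another thinning seed, 20 of the 39 named genes called in the 4 libraries came out the same, 19 weaker and 0 reversed.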
